A study of Mus musculus with 18 samples.

Results

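The comparison described here asks which transcripts differed with the state of ABHD5 when the ABHD5 ligand SR-3420 was present in every culture. It rests on 6 of the 18 RNA-seq libraries of the series, chosen by their labels: the 3 labelled SR-3420 and the 3 labelled SR-3420 with doxycycline (SR-3420 + Dox). All 18 came from 1 immortalised line of mouse brown adipocytes, differentiated in culture and carrying a stable shRNA against Abhd5. The same cells carried a doxycycline-inducible, shRNA-resistant ABHD5 tagged with mCherry, which was switched on with 1 µg/ml doxycycline, for 24 to 48 h by the labels and 24 h where the experiment itself is described. The libraries without Dox are labelled ABHD5 KD and those with Dox are labelled WT, although both carry the shRNA and the rescue construct. SR-3420 was given at 20 µM for 3 h, and the other libraries were 3 each of DMSO and 10 nM isoproterenol (ISO), again without and with Dox. Doxycycline and ABHD5 are on in the same libraries and cannot be told apart. The study's methods describe the RNA-seq replicates as independent experiments, and the labels do not say whether a replicate number marks the same experiment in each group.

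ABHD5, also called CGI-58, is the co-activator of adipose triglyceride lipase (ATGL, gene Pnpla2), which takes the first fatty acid from the triglycerides of the lipid droplet. In resting fat cells perilipins hold ABHD5 away from ATGL, and synthetic ligands such as SR-3420 bind ABHD5 and free it without the protein kinase A signal that adrenergic hormones use. Fatty acids released in brown adipocytes fuel mitochondrial heat production, are esterified again, and act as ligands of the PPAR family of nuclear receptors.

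Total counts in the 6 libraries lay between 1014430 and 1615389, against 689910 to 1956565 in all 18, and 10178 of the 17672 genes in the table had enough counts to be tested. The library SR-3420 + Dox replicate 1 stood apart. Its 10 genes with most counts held 35.6% of its total, against 16.3 to 26.5% in the other 17 libraries. Its scaling factor was the lowest of all, at 0.768. Several calls and passes were lost without it or without another library, and such losses are given beside the genes named. For most genes the deposited length over which reads were counted was close to that of the introns, although the study's methods name counting over genes, so the values are read here as mainly those of unspliced RNA. Levels are in CPM, the counts per 1000000 counts of the scaled library size, and differences are log2 fold changes of SR-3420 + Dox over SR-3420 with their standard error (SE). A gene passed the test at a Benjamini-Hochberg adjusted p of 0.05 or less in edgeR's quasi-likelihood test, and was called where its log2 fold change was also at least 1 in size.

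Abhd5 itself was the gene with the smallest p. Its level was 77.8, 70.9 and 78.5 CPM in the SR-3420 libraries and 575, 849 and 660.1 CPM in the SR-3420 + Dox libraries. Every library with Dox lay far above every library without it. The log2 difference was 3.20 (SE 0.16, edgeR adjusted p = 2.11e-14), a 9.17-fold difference, and it lay between 3.04 and 3.32 when each of the 6 libraries was left out in turn. The difference with Dox in DMSO was 3.46, and the test of the difference between both values did not pass (-0.26, SE 0.23, edgeR adjusted p = 0.712). The gene (NM_026179) spans chr9:122260734-122290641 on the plus strand of mm9, 29908 bases, of which 24026 were counted, against 26658 bases of introns in the mm9 annotation. Transcripts of the cell's own gene and of the rescue construct cannot be told apart in this value. A construct that holds the coding sequence alone has no introns. For Abhd5 the rise in every library with Dox is then at odds with reading the counts as mainly unspliced RNA. The source of these reads was not tested.

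Across all genes, 248 were called higher and 98 lower with Dox in the presence of SR-3420, together 3.4% of those tested. Called genes that were higher had log2 fold changes of 1.00 to 5.24 (median 1.53), and those lower had -2.44 to -1.005 (median -1.14). The 3 libraries of each group did not overlap in CPM for 235 of the 248 and 96 of the 98, against 29.5% of all genes tested. Without SR-3420 + Dox replicate 1, 224 genes were called higher and 72 lower, of which 200 and 45 were also called with it. The test alone was passed by 739 genes above 0 and 436 below with that library. Without it these were 533 and 222, of the 10171 genes tested in both fits. The split between directions depended on the scaling: 71.7% of called genes were higher with the scaling used here, 61.3% with upper-quartile factors and 35.3% with library totals alone, which moved the median of all genes to -0.22. These are bulk libraries, in which fewer cells of a type and less RNA per cell cannot be told apart.

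Of the pathway lists counted here, that of the interferon response had the most members called. The pathway lists were chosen with earlier results of these data known, so their ranks and counts are no independent evidence. Interferons act through JAK kinases on STAT transcription factors, among them STAT2, which with IRF9 binds the interferon-stimulated response element (ISRE) upstream of antiviral genes, among them sensors of foreign RNA, enzymes that block viral replication and the loading of antigen. Of a list of 113 such genes, 93 were tested and 66 were called higher and none lower, against 2.44% and 0.963% of all genes tested. The list's median log2 fold change was 1.76, against -0.000137 over all genes. By role, 16 of 19 tested sensors of nucleic acid, 30 of 33 antiviral effectors, 12 of 16 ubiquitin, ISG15 and PARP family genes, 5 of 14 signalling genes and 3 of 11 genes of antigen presentation were called higher. The promoters of Bst2, Ddx60 and Stat2 are shown because they hold the letters of the ISRE. Each is the 250 bases before the gene's RefSeq start in GRCm38.p6, with matches to 2 copies of GAAA set 2 bases apart, on either strand, in capitals.
Bst2 (chr8:71537473-71537722, minus strand): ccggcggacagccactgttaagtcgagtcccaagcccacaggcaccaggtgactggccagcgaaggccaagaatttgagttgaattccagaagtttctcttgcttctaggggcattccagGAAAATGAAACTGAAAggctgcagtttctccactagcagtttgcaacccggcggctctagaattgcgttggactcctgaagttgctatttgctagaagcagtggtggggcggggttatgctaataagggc
Ddx60 (chr8:61927837-61928086, plus strand): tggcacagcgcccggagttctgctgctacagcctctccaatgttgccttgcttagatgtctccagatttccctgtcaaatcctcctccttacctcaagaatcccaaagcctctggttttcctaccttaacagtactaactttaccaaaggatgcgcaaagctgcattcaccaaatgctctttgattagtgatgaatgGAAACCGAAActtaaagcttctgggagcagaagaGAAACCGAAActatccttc
Stat2 (chr10:128270248-128270497, plus strand): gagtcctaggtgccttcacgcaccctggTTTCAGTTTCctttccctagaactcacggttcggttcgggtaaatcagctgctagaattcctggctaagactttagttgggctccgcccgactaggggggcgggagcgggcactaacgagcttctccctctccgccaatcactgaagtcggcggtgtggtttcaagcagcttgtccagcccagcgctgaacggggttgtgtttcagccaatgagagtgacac

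In Bst2, 2 overlapping matches lay 130 to 115 bases before the start, in Ddx60 the 2 matches lay between 53 and 10 bases before it, and in Stat2 the match lay on the other strand, 222 to 213 bases before it. Of the 66 called genes, 48 had a promoter in the RefSeq table, and 20 of their 58 promoters (34.5%) held the motif. It was found in 1 of the 32 promoters of tested members that were not called, and in 2.98% of all 32851 promoters in the table. A match is a run of letters and not a measured binding site.

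Bst2 encodes tetherin, which holds budding virus at the cell surface. It stood at 15.1, 23.2 and 26.7 CPM with SR-3420 and 137, 236 and 255 CPM with SR-3420 + Dox, 3.28 in log2 (SE 0.28, edgeR adjusted p = 4.77e-09). The groups were far apart, and replicate 1 was the lowest in both. Among the sensors, Ddx60, a helicase that acts with RIG-I, went from 7.55, 18.6 and 11 CPM to 79.1, 122 and 138 CPM (3.16, SE 0.30). Dhx58, the RIG-I-like protein LGP2, went from 15.1, 36.6 and 29.8 CPM to 114, 205 and 206 CPM (2.69, SE 0.29). In both genes the 3 libraries with Dox lay above the 3 without. Oas1b, of the family of 2′-5′ oligoadenylate synthetases, went from 22.1, 44.1 and 30.6 CPM to 137, 256 and 279.6 CPM (2.78, SE 0.28). Slfn8, a Schlafen family gene, went from 5.23, 6.97 and 7.06 CPM to 53.6, 122 and 97.9 CPM (3.81, SE 0.37). The largest log2 fold change of any called gene, singled out after its value was seen, was that of Rsad2, the antiviral enzyme viperin, at 5.24 (SE 0.69), from 0, 5.81 and 2.35 CPM to 43.1, 175 and 108 CPM. It ranged from 4.60 without SR-3420 replicate 1 to 6.60 without SR-3420 replicate 2.

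The transcription factor gene Stat2 rose as well. It stood at 28.4, 60.4 and 31.4 CPM and 80.9, 155 and 179.8 CPM, a log2 difference of 1.76 (SE 0.28, edgeR adjusted p = 7.61e-05). Usp18, which removes ISG15 and damps the receptor, had 3.04 (SE 0.36), and the ubiquitin ligase gene Trim25, which acts on RIG-I, had 2.03 (SE 0.19). In all of these the groups did not overlap. The antigen-processing genes Tap1, a peptide transporter of the endoplasmic reticulum, and Psmb8, an immunoproteasome subunit, had 1.56 (SE 0.25) and 1.35 (SE 0.32). H2-K1, a class I histocompatibility gene, went from 207, 209.7 and 224 CPM to 395, 465 and 402 CPM and passed the test at 0.98 (SE 0.15, edgeR adjusted p = 3.11e-05) without reaching the fold limit. Jak2 and Mavs, the kinase of cytokine receptors and the mitochondrial adaptor of RNA sensing, were the 2 members that passed the test below 0, at -0.69 and -0.84, and neither passed without SR-3420 + Dox replicate 1 (edgeR adjusted p = 0.128 and 0.137) or 2, nor Jak2 without SR-3420 replicate 2 (range -0.97 to -0.55) or Mavs without SR-3420 replicate 3 (range -1.01 to -0.62).

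The interferon genes rose with Dox in DMSO too. There, 64 of the 93 were called higher with Dox (0.874% of all genes tested), with a median of 2.04. Of the 66 called in SR-3420, 62 (93.9%) were called in DMSO, which is 96.9% of the 64, and 58 were called in ISO as well. None of the 93 was called in the test of the difference between the effects of Dox in SR-3420 and in DMSO by edgeR, DESeq2 or limma-voom, with 3 positive and 8 negative at an unadjusted p under 0.05. Set on a scale where the mean of the SR-3420 libraries is 0, the median member stood at -0.16, 0.29 and -0.06 in the SR-3420 libraries and at 1.28, 2.12 and 2.01 with Dox. Replicate 1 was the lowest of each of the 3 Dox groups, at 1.49 in DMSO + Dox and 1.08 in ISO + Dox. Without SR-3420 + Dox replicate 1, 66 members were called and the median was 2.05.

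**Figure D1:**
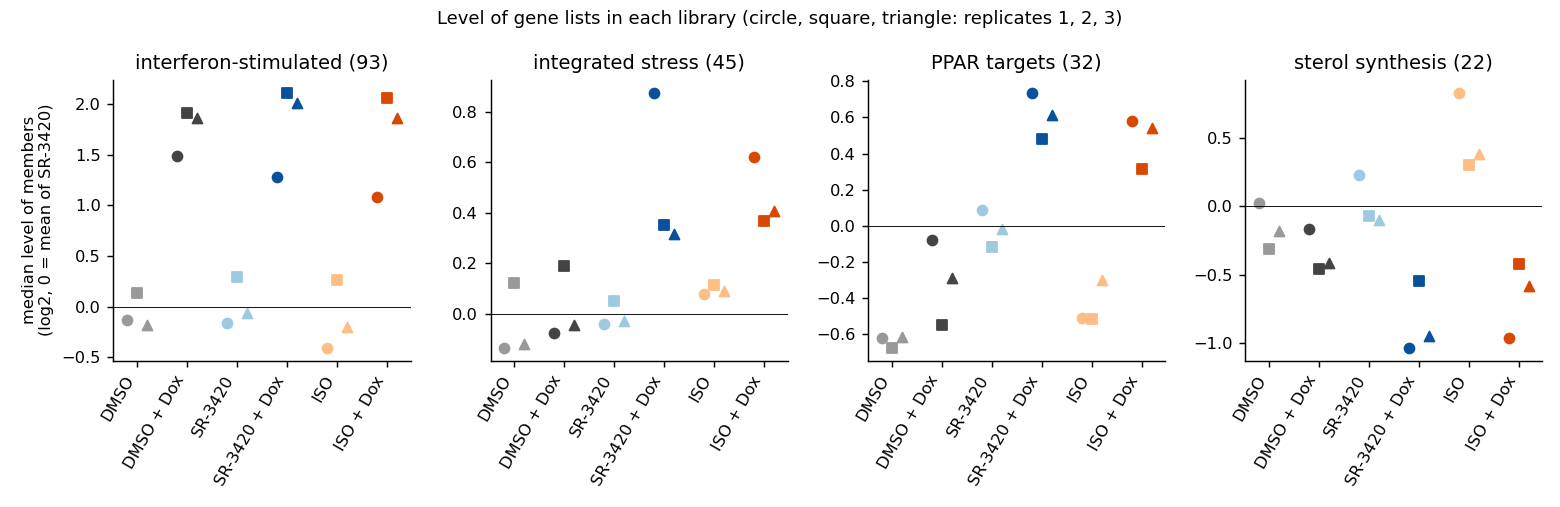
Median log2 level of the members of 4 gene lists in each of the 18 libraries, by group, with 0 as the mean of the SR-3420 libraries; each point is 1 library. The interferon list lay at 1.28 to 2.12 in SR-3420 + Dox and was high in every Dox group, whereas the integrated stress and PPAR lists lay at 0.32 to 0.88 and 0.48 to 0.74, and the sterol list at -1.03 to -0.54.

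Outside the interferon list, 182 genes were called higher with Dox in SR-3420, and 20 of them were called higher in DMSO. Of all 248, 132 (53.2%) were also called higher with Dox in ISO, which is 41.4% of the 319 called there (3.13% of those tested), and 109 were called in neither DMSO nor ISO. Of the 98 called lower, 22 were called lower with Dox in ISO, which is 13.9% of the 158 called there (1.55% of those tested). In DMSO 2 genes (0.0197%) were called lower with Dox, neither of them among the 98. The plot of both effects of Dox places each gene by its value in DMSO and in SR-3420.

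**Figure D2:**
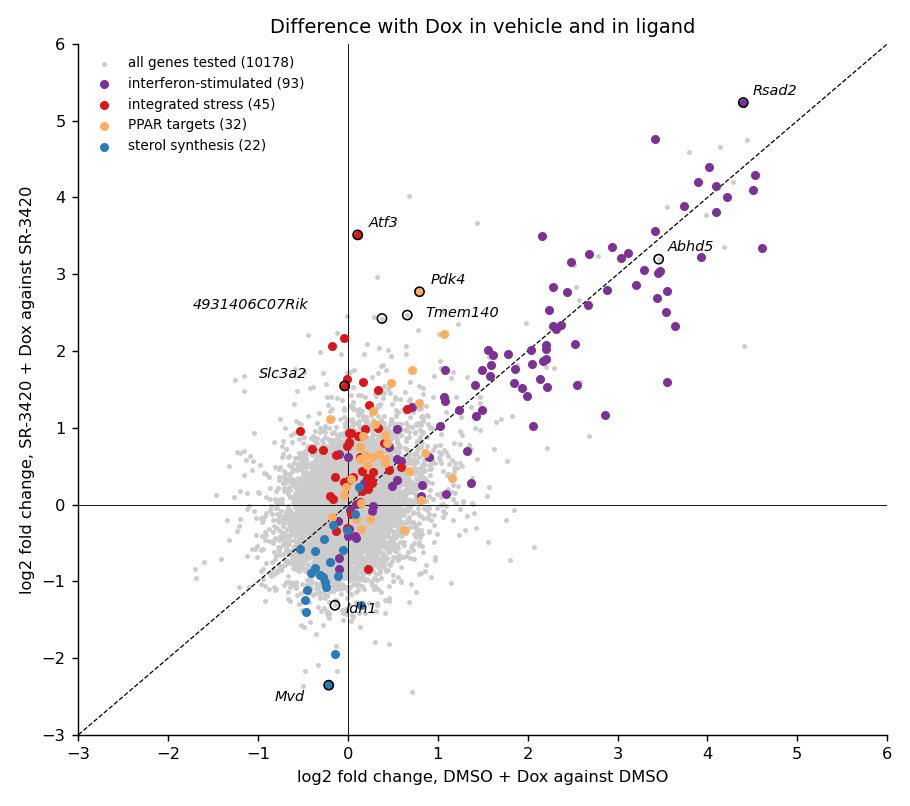
Log2 fold change with Dox in DMSO (horizontal) against that in SR-3420 (vertical) for the genes tested, with members of gene lists in colour, named genes ringed and a dashed line where both are equal. Interferon genes and Abhd5 lie along the line, whereas Tmem140 (0.66 and 2.47), Pdk4 (0.80 and 2.77) and Slc3a2 (-0.04 and 1.55) lie above it and Idh1 (-0.15 and -1.31) below it.

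The difference between the effects of Dox in SR-3420 and in DMSO was called positive for 46 genes and negative for 14, 0.59% of those tested. The split between directions depended on the scaling, with 37 and 29 for upper-quartile factors and 16 and 25 for library totals alone. Of the 46, 37 were called higher in SR-3420 itself, and of the 14, 11 were called lower there. Leaving out 1 library at a time gave 20 to 49 positive and 5 to 19 negative. The positive count moved by over 1.5 times, to 20 to 27, without DMSO replicate 1 or 3, SR-3420 replicate 1 or 3, DMSO + Dox replicate 3 or SR-3420 + Dox replicate 1. The negative count fell to 5 to 9 without DMSO replicate 1, SR-3420 replicate 3, DMSO + Dox replicate 1 or 3, or SR-3420 + Dox replicate 1.

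Tmem140, a gene for a membrane protein, had the second smallest p with Dox in SR-3420. It stood at 94.6, 77.2 and 82.4 CPM in SR-3420 and 497, 458 and 454 CPM in SR-3420 + Dox, a log2 difference of 2.47 (SE 0.15, edgeR adjusted p = 9.71e-13). The libraries of each group lay close together and far from the other group. In DMSO its mean was 51.3 ± 5.16 CPM without and 82.1 ± 16.5 CPM with Dox (SD, n = 3), and the 2 effects of Dox differed by 1.81 (SE 0.23, edgeR adjusted p = 9.98e-05). The next by p were 4931406C07Rik, at 2.42 in SR-3420 and 0.38 in DMSO, and Dhrs9, a retinol dehydrogenase gene, at 1.72 and 0.33, with differences of 2.05 (SE 0.27) and 1.39 (SE 0.23). Sash1, a signalling scaffold gene, had 1.73 and 0.02 (difference 1.71, SE 0.24). Aifm2, whose product FSP1 reduces ubiquinone at membranes and guards lipids from peroxidation, went from 233, 239 and 211 CPM to 609, 618 and 542 CPM (1.37, SE 0.13), and Gabarapl1, an autophagosome gene of the ATG8 family, from 22.1, 34.3 and 22 CPM to 134, 107 and 89.9 CPM (2.07, SE 0.20). In each of these 6 genes the groups did not overlap (29.5% of all genes tested). Genes named by smallest p were chosen among those without overlap, so this is no added evidence. Reads of Tmem140, 4931406C07Rik, Sash1, Aifm2 and Gabarapl1 may be shared with an annotated gene that overlaps them, which makes their values uncertain.

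Genes of the integrated stress response were counted next. In this response kinases that sense amino acid shortage, haem loss, double-stranded RNA or stress in the endoplasmic reticulum phosphorylate the initiation factor eIF2, which slows translation and raises the factor ATF4. ATF4 then switches on genes for amino acid uptake and synthesis and for charging of tRNA, often through the C/EBP-ATF response element (CARE). Of 45 tested members of a list of 52, 8 were called higher (2.44% of all genes tested) and none lower (0.963%), and 19 passed the test above 0 (7.26%) and none below. The median was 0.61 in SR-3420 and 0.11 in DMSO, where none was called by edgeR, DESeq2 or limma-voom and none had an unadjusted p under 0.05. The difference from the effect of Dox in DMSO was called for 3 of the 45 (0.59% of all genes tested), Slc3a2, Trib3 and Nupr1. The 8 were Trib3, Atf3 and Nupr1 among the regulators, Slc3a2 and Slc7a5 among the amino acid transporters, Asns, Aars and Gdf15. In Atf3, Asns, Nupr1 and Aars the 250 bases before the RefSeq start held a match to TGATGNAA on either strand, shown in capitals (GRCm38.p6).
Atf3 (chr1:191183334-191183583, minus strand): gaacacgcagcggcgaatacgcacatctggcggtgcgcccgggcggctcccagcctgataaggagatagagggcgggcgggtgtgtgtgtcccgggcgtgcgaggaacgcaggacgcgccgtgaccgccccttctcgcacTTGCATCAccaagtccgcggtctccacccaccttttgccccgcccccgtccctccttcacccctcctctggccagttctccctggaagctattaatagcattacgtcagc
Asns (chr6:7693210-7693459, minus strand): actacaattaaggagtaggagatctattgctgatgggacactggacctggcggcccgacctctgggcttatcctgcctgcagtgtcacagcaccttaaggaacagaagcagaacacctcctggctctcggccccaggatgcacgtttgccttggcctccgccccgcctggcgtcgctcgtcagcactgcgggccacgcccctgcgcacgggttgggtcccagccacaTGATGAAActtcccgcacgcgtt
Nupr1 (chr7:126625471-126625720, minus strand): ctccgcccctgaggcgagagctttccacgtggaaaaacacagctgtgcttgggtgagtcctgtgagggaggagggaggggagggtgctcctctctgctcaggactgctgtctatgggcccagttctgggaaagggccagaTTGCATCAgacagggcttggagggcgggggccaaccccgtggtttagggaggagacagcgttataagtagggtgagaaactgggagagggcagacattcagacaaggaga
Aars (chr8:111033592-111033841, plus strand): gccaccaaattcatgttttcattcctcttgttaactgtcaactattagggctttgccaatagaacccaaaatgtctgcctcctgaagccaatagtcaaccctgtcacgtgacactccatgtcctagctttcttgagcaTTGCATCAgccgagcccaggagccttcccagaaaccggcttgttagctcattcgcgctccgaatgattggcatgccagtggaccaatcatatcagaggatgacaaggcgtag

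The matches lay 110 to 103 bases before the start in Atf3 and in Nupr1, 23 to 16 in Asns and 112 to 105 in Aars. They were in 4 of the 8 promoters that 7 of the called genes had in the table, in 10 of the 40 promoters of all tested members (25%), and in 3.45% of all promoters.

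Slc3a2, the heavy chain shared by several amino acid transporters at the cell surface, stood at 106, 109.8 and 122 CPM in SR-3420 and 405, 308 and 269 CPM in SR-3420 + Dox (1.55, SE 0.15, edgeR adjusted p = 1.65e-08). The difference from its effect of Dox in DMSO (-0.04) was 1.58 (SE 0.22, edgeR adjusted p = 0.000155). The groups did not overlap, and replicate 1 was the highest with Dox. Trib3, a pseudokinase induced by ATF4, went from 21.5, 20.3 and 18 CPM to 119.5, 71.6 and 78.9 CPM (2.17, SE 0.25), and its difference from the effect in DMSO was 2.21 (SE 0.43, edgeR adjusted p = 0.0133). Nupr1, a small chromatin protein of stress responses, went from 44.1, 54.6 and 58.8 CPM to 163, 148 and 129.8 CPM (1.49, SE 0.16), with a difference from DMSO of 1.16 (SE 0.24, edgeR adjusted p = 0.0193). In Trib3 and Nupr1 too every library with Dox lay above those without.

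Atf3, a stress-induced bZIP factor, was low without Dox, at 2.90, 1.74 and 3.92 CPM, and stood at 35.2, 43.7 and 19 CPM with it (3.51, SE 0.42, edgeR adjusted p = 1e-06). Its difference from the effect in DMSO was 3.41 (SE 0.91) and did not pass (edgeR adjusted p = 0.0673). Asns, asparagine synthetase, went from 31.9, 37.8 and 36.1 CPM to 169.6, 78.5 and 77.9 CPM (1.64, SE 0.27). Replicate 1 was by far the highest of the libraries with Dox, and without it the log2 fold change was 1.16. The secreted factor gene Gdf15, which acts on appetite, had 2.07 (SE 0.37). Of 14 tested tRNA synthetase genes, Aars for alanine was called (1.30, SE 0.20), and 8 in all passed the test above 0 (7.26% of all genes tested), 5 without SR-3420 + Dox replicate 1, among them Sars for serine at 0.89 (SE 0.17).

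The library that stood apart also stood apart in this list. On the scale where the mean of SR-3420 is 0, the median member was at -0.04, 0.05 and -0.03 in the SR-3420 libraries, at 0.88 in SR-3420 + Dox replicate 1 and at 0.35 and 0.32 in replicates 2 and 3. Without replicate 1, 7 members were called and 11 passed the test above 0, with a median of 0.38, and the transporter gene Slc7a5 was no longer called (1.04, edgeR adjusted p = 0.0724). Without replicate 2 or 3 of the same group, 15 and 13 were called. The part of that library's composition in these values was not tested.

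Of 35 tested chaperone, degradation and sensor genes of the endoplasmic reticulum's own folding response, none was called by edgeR or DESeq2 and 1 by limma-voom. The test was passed by 4 above 0 and 2 below (7.26% and 4.28% of all genes tested), and 10 had an unadjusted p under 0.05. The median was 0.01. Without SR-3420 + Dox replicate 1, 1 of 36 tested was called higher, and 1 passed above 0 and none below. Ero1l, the oxidase that makes disulfide bonds in the lumen, passed at 0.96 (SE 0.30, edgeR adjusted p = 0.0312). It lay between 0.68 and 1.37 with 1 library left out and did not pass without SR-3420 replicate 1 or 3 or SR-3420 + Dox replicate 2. Creld2 and Edem2, a lumenal chaperone-like gene and a factor of glycoprotein degradation, passed at -0.63 and -0.75 but not without SR-3420 replicate 1 or SR-3420 + Dox replicate 1 (-0.53 and -0.61 without the latter). Among 18 tested genes that the study used as markers of the unfolded protein response, 4 were called higher (2.44% of all genes tested): Atf3, Asns, Dusp1 and Thbs1. Of these markers 7 passed the test above 0 (7.26% of all) and none below, with a median of 0.49 in SR-3420 and -0.03 in DMSO. The difference from DMSO was called for none of the 18 by edgeR or limma-voom and for 2 by DESeq2, with 9 at an unadjusted p under 0.05, and 5 markers passed without SR-3420 + Dox replicate 1. Thbs1, the matrix protein thrombospondin 1, went from 43, 40.1 and 32.2 CPM to 184, 188 and 70.9 CPM (1.93, SE 0.24), with the third library with Dox well below the other two but above all without. Dusp1 was called with all libraries (1.32) and not without SR-3420 replicate 2 or SR-3420 + Dox replicate 1 or 2, with a range of 0.86 to 1.74. Of 13 mitochondrial stress and import genes none was called by edgeR, DESeq2 or limma-voom and 1 had an unadjusted p under 0.05. That was the protease gene Lonp1, which passed the test at 0.55 (SE 0.13) and did not without SR-3420 + Dox replicate 1 (0.47, edgeR adjusted p = 0.0529).

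**Figure D3:**
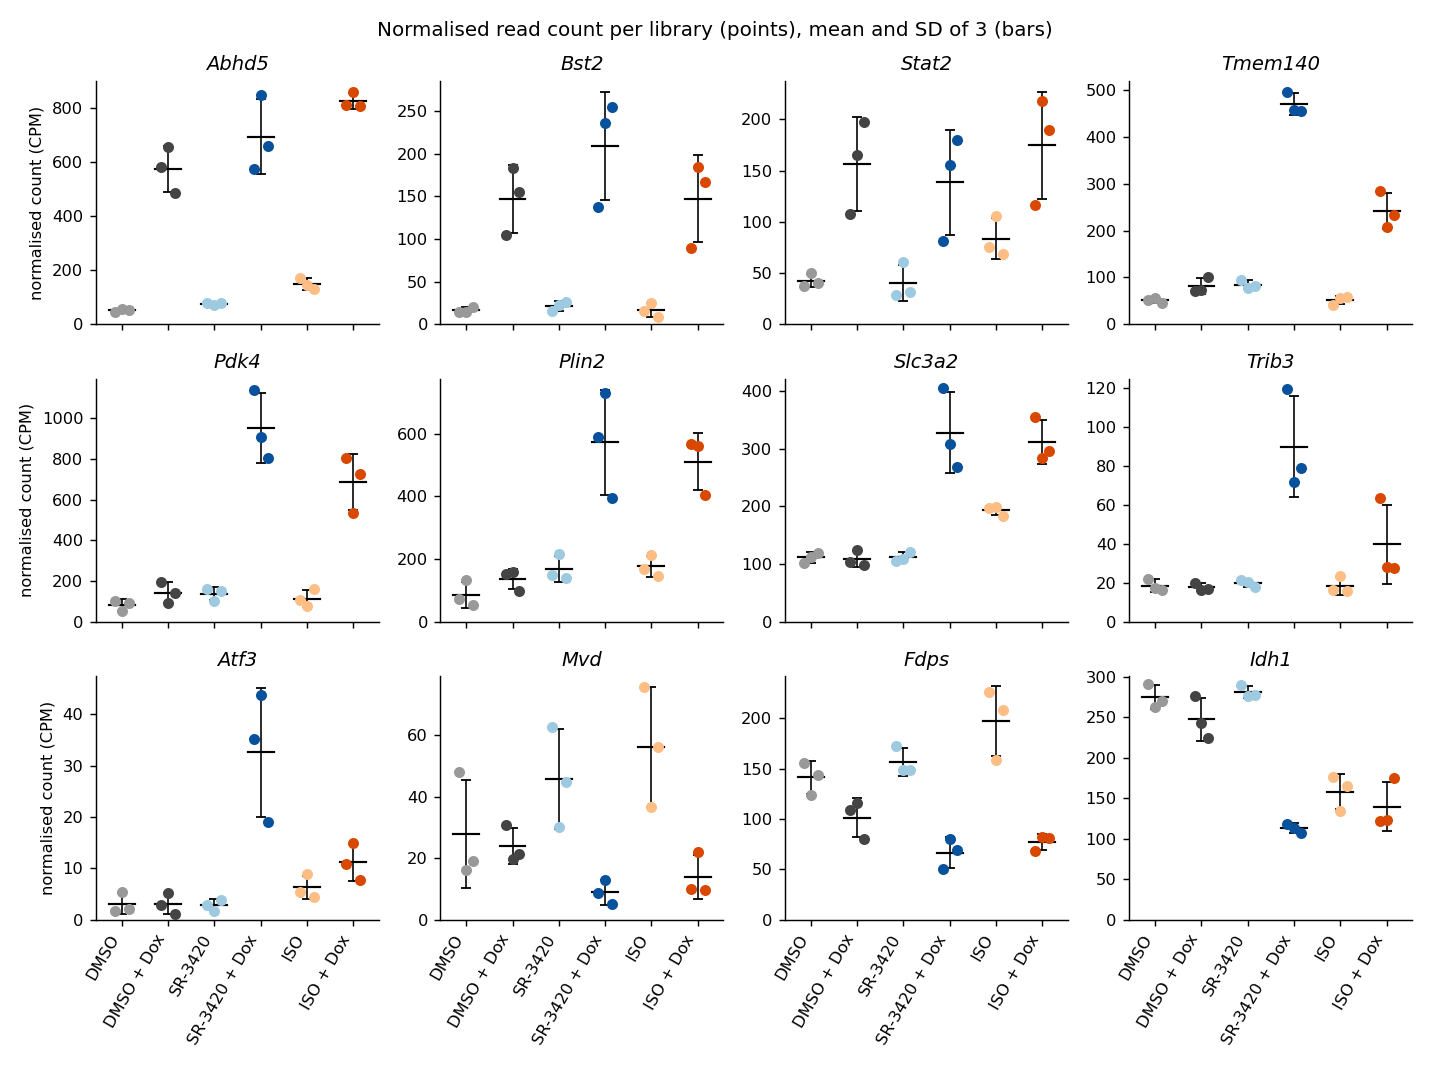
Level in CPM (linear scale from 0) of 12 genes in the 18 libraries by group, with points for libraries, and the mean and SD of 3 libraries. Abhd5, Bst2 and Stat2 are high in every Dox group; Tmem140, Pdk4, Plin2, Slc3a2, Trib3 and Atf3 are highest in SR-3420 + Dox or ISO + Dox; Mvd, Fdps and Idh1 are low in SR-3420 + Dox.

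Genes of the lipid droplet and of lipolysis hold both coat proteins and enzymes. Perilipins and CIDE proteins coat the droplet, HILPDA and G0S2 inhibit ATGL, and MGLL completes the breakdown that ATGL and hormone-sensitive lipase begin. Of 24 tested genes of a list of 28, 6 were called higher, Abhd5 included (2.44% of all genes tested), and none lower, with a median of 0.39. In ISO 10 of the 24 were called higher with Dox (3.13% of all there), with a median of 0.53. Pnpla2, which encodes ATGL, stood at 579, 539 and 672 CPM in SR-3420 and 755, 719.8 and 627 CPM in SR-3420 + Dox, ranges that overlap (0.23, SE 0.14, edgeR adjusted p = 0.292). Hilpda rose from 2.32, 0 and 1.57 CPM to 22, 27.8 and 17 CPM, a few counts per library without Dox, at 4.02 in log2 (SE 0.57, edgeR adjusted p = 1.28e-05), and ranged from 3.41 without SR-3420 replicate 2 to 4.83 without SR-3420 replicate 1. An overlapping annotated gene on the same strand may share its reads. G0s2 did not pass (0.47, SE 0.29).

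Plin2, the perilipin found on droplets of most cells, stood at 151, 218 and 139.7 CPM in SR-3420 and 589, 731 and 395 CPM in SR-3420 + Dox (1.75, SE 0.23, edgeR adjusted p = 3.26e-06), with the groups well apart and the third replicate lowest in both. Plin4 went from 1893, 2082 and 1725 CPM to 4541, 4591 and 3139.8 CPM (1.11, SE 0.21), again without overlap. Plin1, the perilipin that holds ABHD5 in fat cells, passed below the fold limit at 0.56 (SE 0.15, edgeR adjusted p = 0.0158). It did not pass without SR-3420 replicate 1 or 3 or SR-3420 + Dox replicate 2, with a range of 0.40 to 0.68. Plin5, which links droplets to mitochondria, had 0.44 (SE 0.32, edgeR adjusted p = 0.411) at 10.2 to 20 CPM. Cidea, the droplet-fusing protein of brown fat, and Fitm2, which takes part in droplet budding, were called at 1.12 and 1.06, and neither passed without SR-3420 + Dox replicate 1 (edgeR adjusted p = 0.107 and 0.0651). Fitm2 did not pass either without SR-3420 replicate 2 or 3 or SR-3420 + Dox replicate 2 (range 0.87 to 1.28). The hormone-sensitive lipase gene Lipe was not analysed here.

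The PPARs bind fatty acids and, with RXR, activate genes of fatty acid uptake, storage and oxidation. Of 32 tested genes of a list of 41 known PPAR targets, 8 were called higher (2.44% of all genes tested) and none lower, 18 passed the test above 0 (7.26% of all) and none below, and the median was 0.61 in SR-3420, against 0.29 in DMSO, where none was called by edgeR, DESeq2 or limma-voom and 10 had an unadjusted p under 0.05, and 0.93 in ISO, where 14 were (3.13% of all there). The difference from DMSO was called for 1 of the 32, Pdk4 (0.59% of all genes tested). The called members were Pdk4, Plin2, Pck1, Klf11, Fabp4, Gpd1, Ucp3 and Cidea. On the list's scale the median member was at 0.09, -0.12 and -0.02 in the SR-3420 libraries and at 0.74, 0.48 and 0.61 with Dox, so that the groups did not overlap. Without SR-3420 + Dox replicate 1, 5 members were called, 12 passed above 0 and the median was 0.51. Ucp3 was called with all libraries and lost its call when any library other than SR-3420 replicate 3 was left out, at 1.32 with all and 1.04 to 1.57 with 1 left out.

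Pdk4, the kinase that shuts pyruvate dehydrogenase and so spares glucose when fat is burned, stood at 164, 101 and 153 CPM in SR-3420 and 1139, 909.7 and 804 CPM in SR-3420 + Dox. The lowest library with Dox was far above the highest without. Its log2 difference was 2.77 (SE 0.24, edgeR adjusted p = 4.77e-09), and the difference from its effect of Dox in DMSO was 1.98 (SE 0.36, edgeR adjusted p = 0.00639). Of the other 10 tested genes of pyruvate dehydrogenase and its control none was called, and the subunit genes Pdhb and Dlat and the kinase gene Pdk1 passed at 0.70, 0.59 and 0.49. Pdk1 did not pass when any library other than SR-3420 + Dox replicate 2 was left out (0.38 without SR-3420 + Dox replicate 1). Fabp4, the carrier of fatty acids in adipocytes, went from 81.9, 81.9 and 50.2 CPM to 141, 249 and 118 CPM (1.22, SE 0.22), and was at 0.86, below the fold limit, without SR-3420 + Dox replicate 2. Angptl4, a secreted inhibitor of lipoprotein lipase, stood at 555, 331 and 569.6 CPM and 879.8, 699.9 and 729 CPM, groups that did not overlap, and did not pass the test (0.67, SE 0.25, edgeR adjusted p = 0.0868).

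Of 36 tested enzymes of fatty acid oxidation, none was called by edgeR, DESeq2 or limma-voom, 8 passed the test above 0 (7.26% of all genes tested) and none below, 15 had an unadjusted p under 0.05, and the median was 0.05. Of the 36, 4 passed above 0 without SR-3420 + Dox replicate 1. Slc25a20, the mitochondrial carrier of acylcarnitines, stood at 37.2, 23.2 and 33.7 CPM and 62.4, 59.7 and 51.9 CPM (0.89, SE 0.22, edgeR adjusted p = 0.0063), and did not pass without SR-3420 replicate 2 (0.71). Of 22 tested genes that make glycerol 3-phosphate and triglyceride, 3 were called higher (2.44% of all), Pck1, Agpat9 and Gpd1. Of the 22, 8 passed above 0 and 1 below (7.26% and 4.28% of all). Pck1, the enzyme that starts glyceroneogenesis, went from 20.3, 6.97 and 4.71 CPM to 55.4, 62.6 and 37.9 CPM (2.22, SE 0.35), and was at 3.09 without SR-3420 replicate 1. Gpd1, glycerol 3-phosphate dehydrogenase, went from 619, 572 and 654 CPM to 1464, 1151 and 1184 CPM (1.04, SE 0.15), and Dgat1, which adds the last fatty acid of a triglyceride, passed at 0.94 (SE 0.19). In all 3 the groups did not overlap, and Gpd1 fell below the fold limit without SR-3420 + Dox replicate 1 (0.93) or SR-3420 replicate 2.

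Of the pathway lists, the sterol synthesis genes had the most members called lower. The factor SREBP-2 is held in the endoplasmic reticulum when sterol is plentiful, and when sterol runs low it activates the enzymes of the mevalonate and cholesterol pathways. Of 22 tested sterol genes, 8 were called lower and none higher (0.963% of all genes tested were called lower), and 12 passed the test below 0 (4.28% of all). The median was -0.91 in SR-3420 and -0.25 in DMSO. The difference between both effects of Dox was called for none of the 22 by edgeR or limma-voom and for 2 by DESeq2, with 9 at an unadjusted p under 0.05, all negative. Over these and 16 fatty acid synthesis genes together, none of 38 was called with Dox in DMSO by edgeR, DESeq2 or limma-voom, and 7 had an unadjusted p under 0.05, all below 0. In ISO, 14 of the 38 were called lower with Dox (1.55% of all there). The median sterol gene was at 0.23, -0.07 and -0.10 in the SR-3420 libraries and at -1.03, -0.54 and -0.95 with Dox, without overlap.

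Mvd, which makes isopentenyl diphosphate, stood at 62.7, 30.2 and 44.7 CPM in SR-3420 and 8.79, 12.9 and 4.99 CPM in SR-3420 + Dox (-2.35, SE 0.41, edgeR adjusted p = 0.000196). Fdps, farnesyl diphosphate synthase, went from 172, 149 and 148 CPM to 50.1, 80.5 and 68.9 CPM (-1.24, SE 0.17). In both genes, and in Msmo1 (-1.40, SE 0.25), every library with Dox lay below those without, and each overlaps another annotated gene. Cyp51 and Dhcr7 were also called, at -1.12 and -1.02, close to the fold limit. Cyp51 fell below it without SR-3420 replicate 1 or SR-3420 + Dox replicate 3 (range -1.28 to -0.98), and Dhcr7 without SR-3420 replicate 1 or SR-3420 + Dox replicate 1 or 2 (range -1.07 to -0.93). The difference from the effect of Dox in DMSO was -2.14 for Mvd and did not pass (edgeR adjusted p = 0.0657). Without SR-3420 + Dox replicate 1, 7 sterol genes were called lower, and without SR-3420 replicate 1, 5 were. None of the 21 promoters that 15 of the genes had in the RefSeq table held the sterol regulatory element letters TCACNCCAC, which 1.05% of all promoters hold.

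Of 16 tested fatty acid synthesis genes, 12 had values below 0 and 3 passed the test below 0 (4.28% of all genes tested), among them Acly, which makes cytosolic acetyl-CoA (381, 299 and 299.7 CPM and 179, 157 and 171 CPM, -0.95, SE 0.14), and the median was -0.17. The difference between these and the sterol genes was not tested. The single member called higher was the lipogenic regulator Thrsp (1.11), which did not pass without SR-3420 replicate 1 or 2 or SR-3420 + Dox replicate 1 or 3 (range 0.79 to 1.65).

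Of 42 tested genes of NADPH supply, glutathione and the NRF2 response, 3 were called higher and 1 lower (2.44% and 0.963% of all genes tested), with a median of -0.11. Idh1, the cytosolic isocitrate dehydrogenase that makes NADPH, was the gene called lower. It stood at 289, 276 and 278 CPM in SR-3420 and at 119, 113 and 107 CPM in SR-3420 + Dox (-1.31, SE 0.14, edgeR adjusted p = 2.16e-07), with the libraries of each group close together. The difference from its effect of Dox in DMSO was -1.17 (SE 0.20, edgeR adjusted p = 0.00276), and that from its effect in ISO was -1.13 (SE 0.20, edgeR adjusted p = 0.00424). Hmox1, haem oxygenase 1, went the other way, from 17.4, 34.3 and 25.1 CPM to 67.7, 99.4 and 76.9 CPM (1.66, SE 0.28). Gstm1, a glutathione transferase, passed below the fold limit at -0.83 (SE 0.14), and glutathione reductase, Gsr, at -0.71 (SE 0.17), though not without SR-3420 + Dox replicate 3 (-0.59). The other 2 called higher were Gstm5 (1.08) and Gpx3 (1.01), and both calls rest on few libraries. Gstm5 lost its call without SR-3420 replicate 2 or 3 or SR-3420 + Dox replicate 2 or 3 (range 0.87 to 1.31), and Gpx3 without any library other than SR-3420 + Dox replicate 2 (range 0.77 to 1.28).

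**Figure D4:**
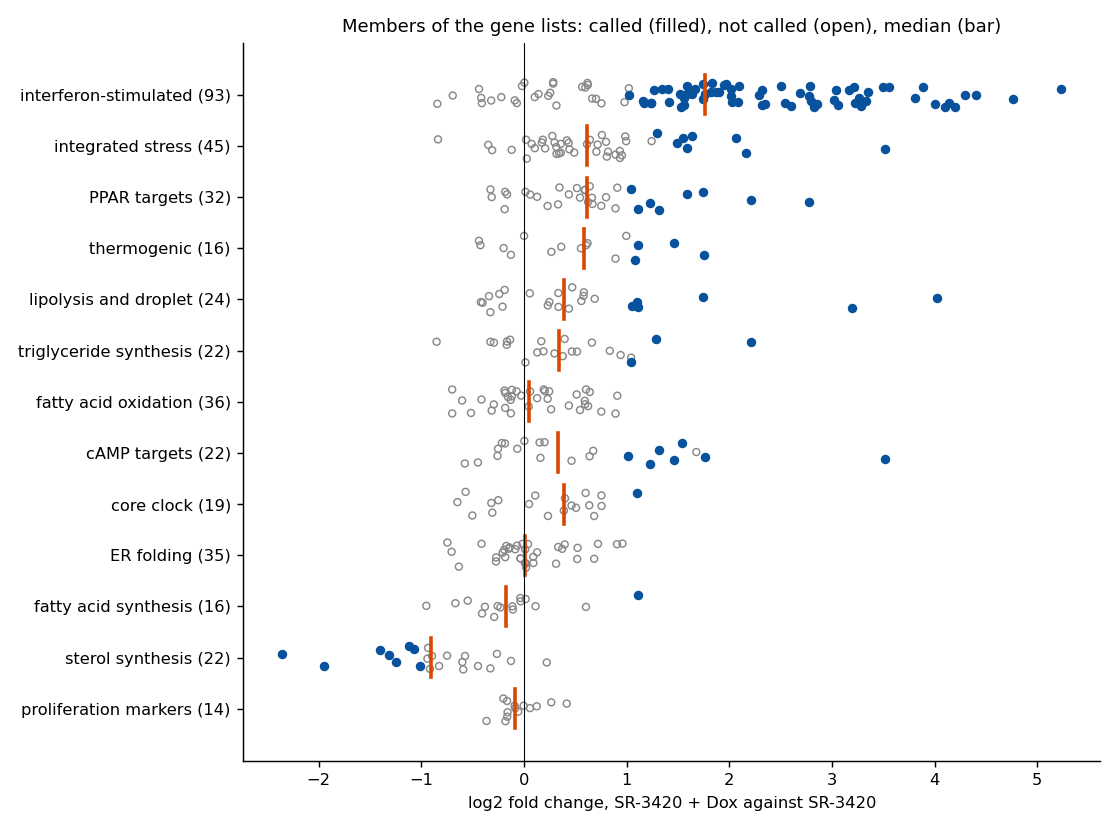
Log2 fold change with Dox in SR-3420 (horizontal) of the tested members of 13 gene lists (rows); filled points are called genes and bars are medians. The interferon list has its median at 1.76 and the sterol genes at -0.91, whereas those of fatty acid oxidation and folding in the endoplasmic reticulum lie at 0.05 and 0.01.

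Among 16 tested thermogenic genes, 4 were called higher (2.44% of all genes tested): the coactivator genes Ppargc1a and Ppargc1b, Nrg4, a growth factor secreted by brown fat, and Cidea. Ppargc1b went from 93.5, 67.4 and 84.7 CPM to 382, 164 and 282 CPM (1.76, SE 0.25) and remained called without SR-3420 + Dox replicate 1 (1.45), where it was the only one of the 4. Ppargc1a, which drives mitochondrial biogenesis, went from 47.6, 19.2 and 37.7 CPM to 146, 61.6 and 75.9 CPM (1.46, SE 0.31), with the second library lowest in both groups, and did not pass without SR-3420 + Dox replicate 1 (edgeR adjusted p = 0.0529). Ucp1, the uncoupling protein that defines brown fat, had 0 to 5 counts in each of the 6 libraries.

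Of 28 tested nuclear receptor genes, 3 were called higher (2.44% of all), Nr4a1, Rxrg and Ppara. Thra and Rara passed the test below 0 (4.28% of all) at -0.87 and -0.80. Rxrg had 1.47 (SE 0.44) and lost its call when any library other than SR-3420 + Dox replicate 1 was left out (range 1.15 to 1.77). Ppara stood at 51.1, 16.8 and 43.9 CPM and 134, 38.8 and 118 CPM, ranges that overlap, and did not pass without SR-3420 replicate 2 or SR-3420 + Dox replicate 1 or 3 (range 1.03 to 1.78). Nr4a1, an early-response receptor without a known ligand, went from 15.1, 18 and 17.3 CPM to 53.6, 53.7 and 38.9 CPM (1.54, SE 0.28) without overlap. It belongs to 22 tested targets of cyclic AMP signalling as well, of which 7 were called higher (2.44% of all), and 4 without SR-3420 + Dox replicate 1, with a median of 0.33 against -0.01 in DMSO. The difference from DMSO was called for none of these 22 by edgeR and for 1 each by DESeq2 and limma-voom, with 9 at an unadjusted p under 0.05, all positive. Sik1, a salt-inducible kinase, went from 4.06, 2.90 and 7.85 CPM to 14.9, 20.9 and 13 CPM (1.77, SE 0.39), and Irs2, an adaptor of the insulin receptor, from 62.7, 47.6 and 56.5 CPM to 134, 132 and 125 CPM (1.23, SE 0.18). Of 19 clock genes, 1 was called higher (2.44% of all), the repressor Bhlhe40 (1.1, SE 0.32). It lost its call in 4 of 6 fits that left out 1 library (range 0.80 to 1.55). Those were the fits without SR-3420 replicate 1 or 2 and without SR-3420 + Dox replicate 2 or 3. Arntl, the clock activator BMAL1, passed at 0.76 (SE 0.16) and Per3 at -0.65 (SE 0.14).

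The remaining genes that were lowest by p have no list in common here. Dgcr8, a partner of Drosha in the processing of microRNA, went from 154, 170.2 and 145 CPM to 62.4, 94.4 and 70.9 CPM (-1.05, SE 0.16), and its difference from DMSO was -1.14 (SE 0.22). It fell below the fold limit without SR-3420 replicate 2 or SR-3420 + Dox replicate 1 (-0.91). Ip6k2, an inositol hexakisphosphate kinase, had -1.14 (SE 0.15), and was -0.67 with Dox in DMSO. Parp16, the PARP of the endoplasmic reticulum membrane, had -1.11 (SE 0.18; -0.96 and not called without SR-3420 + Dox replicate 1) and Marveld1 -1.51 (SE 0.24), with differences from DMSO of -1.29 and -1.54, the latter not passing without DMSO replicate 1. The libraries of both groups did not overlap in any of these (29.5% of all genes tested), as the choice of genes by smallest p required. Dgcr8 overlaps other annotated genes.

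Beside ISO, the difference between the 2 effects of Dox was called positive for 26 genes and negative for 40, 0.648% of those tested, and these counts ranged from 8 to 36 and from 17 to 53 when 1 library was left out. Library totals alone gave 8 and 68. The positive count fell to 8 to 17 without ISO replicate 1, any 1 of the SR-3420 replicates or SR-3420 + Dox replicate 1, and the negative count to 17 and 24 without ISO replicate 1 or SR-3420 replicate 1. Acaa1b, a peroxisomal thiolase of fatty acid oxidation, showed the negative side. Its level was 1105, 773 and 816 CPM in SR-3420 and 1613, 1524 and 1019 CPM in SR-3420 + Dox, which overlap (0.63, SE 0.22), whereas in ISO its mean was 329 ± 42.2 CPM without and 2087 ± 475 CPM with Dox (SD, n = 3). The effects differed by -2.04 (SE 0.31, edgeR adjusted p = 0.000917). Without Dox, Acaa1b was already higher in SR-3420 than in DMSO, by 2.02 (SE 0.23, edgeR adjusted p = 3.64e-06). Tmem120a, a gene of adipocyte differentiation, had 0.69 in SR-3420 and 2.11 in ISO (difference -1.41, SE 0.19), and Dhrs3, a retinal reductase, 0.62 and 2.26 (difference -1.64, SE 0.21). On the positive side, Uap1 and Runx1 did not pass in SR-3420 (0.08 and -0.09) and fell with Dox in ISO, at -1.24 and -1.54, and their differences were 1.32 (SE 0.26) and 1.45 (SE 0.26). The differences from DMSO and from ISO share the 6 libraries with SR-3420, so they are not independent of each other.

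Transcripts of adipocytes and, at a lower sum, of preadipocytes and fibroblasts were present, and those of macrophages, endothelium and muscle were few. Summed over 16 adipocyte markers in the table, the level was 5814 to 6250 CPM in SR-3420 and 6936 to 8598 CPM in SR-3420 + Dox, and 1 of 15 tested, Fabp4, was called higher (2.44% of all genes tested). Of the 15, 5 passed the test above 0 and 2 below (7.26% and 4.28% of all), and 6 above and 0 below without SR-3420 + Dox replicate 1. Their median level, on the scale where the mean of SR-3420 is 0, was at -0.02 to 0.04 in SR-3420 and 0.16 to 0.35 with Dox, without overlap, and its part in the PPAR and lipid droplet values was not tested. Preadipocyte and fibroblast markers summed to 1343 to 1582 and 1463 to 1620 CPM, and 1 of 11 tested, S100a4, was called lower (0.963% of all; -1.02, SE 0.28), a call lost without SR-3420 replicate 2 or SR-3420 + Dox replicate 2 or 3 (range -1.44 to -0.83). The collagen gene Col3a1 had 296 to 673 counts in each of the 6 libraries. Proliferation genes summed to 1332 to 1349 and 1277 to 1300 CPM, with none of 14 of the latter called by edgeR, DESeq2 or limma-voom and 1 at an unadjusted p under 0.05. Macrophage markers summed to 36.1 to 44.7 CPM in SR-3420 and 24.97 to 31.8 CPM in SR-3420 + Dox. The markers Emr1, Csf1r, Itgam, Ptprc and Tyrobp had 0 to 4 counts in each library, whereas Cd68 had 9 to 24. Fcer1g, an Fc receptor subunit, was called lower, from 26.7, 12.2 and 14.9 CPM to 5.27, 6.96 and 3.00 CPM (-1.81, SE 0.40). Endothelial markers summed to 13.9 to 19.2 and 9.99 to 20.2 CPM, with Kdr at 0 counts and Tek at 7 to 15 in the 6 libraries. Myogenic markers summed to 24.96 to 39.2 and 23.7 to 30.8 CPM, with Myod1, Myog and Myf5 at 0 counts there.

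Gene clusters that the study drew up were counted in the same way. Those of its experiment with lipase inhibitors, whose libraries are not used here, had 20 of 87 tested genes called higher and none lower in the first, 2 and 1 of 72 in the second, 27 and none of 140 in the third, and 17 and 2 of 143 in the fourth, against 2.44% higher and 0.963% lower of all genes tested. These were 16 and 0, 1 and 0, 24 and 0, and 14 and 2 without SR-3420 + Dox replicate 1. Those of the Dox experiment had 79 of 92 called higher in the first, 37 of 294 in the second, 37 of 126 in the third and 10 of 284 in the fourth, with 3 called lower in the fourth and none in the others. Without that library 79, 29, 34 and 7 were called higher. The clusters of the Dox experiment were chosen on these libraries and are no independent evidence of direction.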

How the data were processed

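Whole-number counts per gene were deposited by the authors in 1 table of 18 libraries. Per the study's methods, reads were aligned with STAR and counted with HOMER through iRNA-seq (STAR 2.4.2a per the submitters' processing notes). Coordinates are mm9, and for 66.3% of the 16516 genes matched by symbol the counted length was within 10% of the summed introns (of the exons, 2.48%), so the counts were treated as mainly from unspliced RNA, although the methods name counting over genes. A single read was kept per position and length, which can lower the counts of abundant transcripts. Here edgeR 4.0.16 (R 4.3.3) was run on the counts of all 18 libraries with 1 mean per group, the default filter on low counts, TMM scaling and quasi-likelihood F tests, two-sided, with Benjamini-Hochberg adjustment over 10178 genes. The biological coefficient of variation was 0.133. DESeq2 1.42.0 and limma-voom 3.58.1 were alternatives, and the steps were tested on simulated data. Replicates differed by more than sampling noise. Named genes were Abhd5, the 12 smallest p in each direction without overlap, 5 in each direction of each interaction, up to 5 per list (4 per interferon role) and genes of the study's interest. Others complete a count, or are said to be chosen after their values were seen. Some genes are not reported here but stay in the counts of lists. The members and lists were chosen with earlier results of these data known. Promoters are from RefSeq (GRCm38.p6).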

Additional observations from a re-analysis of the deposited data

Results flagged for a closer look

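The effect of Dox differed between SR-3420 and DMSO, by a test of the difference itself (edgeR, adjusted p of 0.05 or less and a difference of at least 1 in log2), for 46 genes in the positive direction and 14 in the negative. Those with the smallest p were 4931406C07Rik (2.05), Tmem140 (1.81), Sash1 (1.71), Slc3a2 (1.58) and Arfgap3 (1.35), a GTPase-activating protein gene of the Golgi, on the positive side. On the negative side they were Marveld1 (-1.54), Cbx2 (-1.52), a Polycomb gene, Parp16 (-1.29), Idh1 (-1.17) and Dgcr8 (-1.14).

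The effect of Dox also differed between SR-3420 and ISO, by the same test, for 26 genes in the positive direction and 40 in the negative. The positive differences with the smallest p were Zfp949 (4.71), Cyp2ab1 (2.11), Spata5 (1.49), Runx1 (1.45) and Uap1 (1.32), and the negative ones were Acaa1b (-2.04), Dhrs3 (-1.64), Tmem120a (-1.41), Ctcfl (-1.29) and Lrig1 (-1.13). In Zfp949 the SR-3420 libraries stood at 143, 47.6 and 214 CPM and the SR-3420 + Dox libraries at 1606, 96.4 and 484 CPM, so that replicate 1 with Dox was far above the other two, and without it the log2 fold change with Dox was 1.14 (edgeR adjusted p = 0.233). The difference of Spata5 was 1.09 without that library and did not pass (edgeR adjusted p = 0.0619).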

How the results depend on the processing

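With at least 10 counts in every sample, 115 genes were called higher and 46 lower with Dox in SR-3420, 36 higher and 0 lower in DMSO, and 175 higher and 62 lower in ISO, and 26 interferon, 5 integrated stress and 3 PPAR list members were called, from fewer genes tested. Without the fold limit the counts were 739 and 436 in SR-3420, 9 lower in DMSO, 806 and 491 in ISO, 22 negative differences from DMSO, and 19 integrated stress and 18 PPAR members. At an adjusted p of 0.01 they were 51 lower in SR-3420, 0 lower in DMSO, 94 lower in ISO, 8 positive and 1 negative differences from DMSO, and 3 and 13 from ISO. Library totals alone gave 313 lower in SR-3420, 5 lower in DMSO, 16 and 25 differences from DMSO, 8 and 68 from ISO, and 5 PPAR members, and the cause was not tested. Upper-quartile factors gave 29 negative differences from DMSO. No filter gave 35 negative differences from DMSO and 71 and 76 from ISO. The 2 genes called lower in DMSO were 0 with DESeq2, 1 with limma-voom and 1 with the groups of the comparison alone.

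A fit with a replicate block called 393 genes in SR-3420, against 346 (343 shared), 5 were lower in DMSO, and differences numbered 83 and 45 from DMSO and 74 and 68 from ISO, 128 and 142 in all against 60 and 66, which were all shared. In that fit the difference from DMSO was called for 8 integrated stress, 4 cyclic AMP and 3 PPAR members. It was also called for 3 sterol, 3 unfolded protein response and 2 lipid droplet members. Without the block it was called for 3 integrated stress members, 1 PPAR member and none of the others. No interferon member was called in either fit. Same-numbered SR-3420 and SR-3420 + Dox libraries correlated at 0.149, 0.252 and 0.0386 in their deviations from the group means, and 5 of the 6 correlated best with their own number. Those of ISO and ISO + Dox correlated at 0.146, 0.252 and 0.128, of SR-3420 and DMSO at 0.138, 0.263 and 0.137, of SR-3420 + Dox and DMSO + Dox at 0.188, 0.246 and 0.123, and of DMSO and DMSO + Dox at 0.145, 0.235 and 0.0875. Not every pair reached 0.1 in the comparison described here, and the pairing of the numbers is a hint from the data that the labels do not settle.

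When 1 library was left out, counts ranged from 224 to 271 higher and 72 to 107 lower in SR-3420, 72 to 100 and 1 to 6 in DMSO, 277 to 337 and 122 to 153 in ISO, 20 to 49 and 5 to 19 differences from DMSO, and 8 to 36 and 17 to 53 from ISO. List members called ranged from 61 to 66 for interferon, 5 to 10 for sterol, 7 to 15 for integrated stress, 5 to 8 for PPAR, 4 to 6 for lipid droplet, 4 to 7 for cyclic AMP, 0 to 1 for clock and 1 to 5 for thermogenic genes. The log2 values of 3 genes that did not pass with Dox in SR-3420 changed sign. With 1 library left out, Uap1 ranged from -0.096 (without SR-3420 + Dox replicate 1) to 0.26, Ucp1 from -0.074 (without that same library) to 1.57, and Runx1 from -0.22 to 0.022 (without SR-3420 + Dox replicate 3), and library totals only gave -0.16 for Uap1.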

Other observations

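Some gene families were looked at after their values had been seen. Folliculin and its partners, which control lysosomal signalling to mTORC1 and the factors TFEB and TFE3, had Flcn at 1.42 (SE 0.18) and Fnip1 at 1.26 (SE 0.20) called higher with Dox in SR-3420, and Fnip2 passed the test at 0.88 (SE 0.25). With Dox in DMSO the 3 stood at 0.04, -0.04 and -0.01, and none was called. Of 13 tested subunits of the vacuolar proton pump that acidifies lysosomes, 2 were called higher (2.44% of all genes tested), Atp6v1b2 at 1.36 (SE 0.22) and Atp6v1g1 at 1.06 (SE 0.17). Of the 13, 5 passed the test above 0 (7.26% of all), and none was called in DMSO. Without SR-3420 + Dox replicate 1, both folliculin genes and 1 pump gene were called.

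Some dual-specificity phosphatases switch off MAP kinases. Of 11 tested genes of this family, taken by symbol, 4 were called higher and 2 lower, against 2.44% and 0.963% of all genes tested. Those higher were Dusp10 (2.27, SE 0.22), Dusp5 (2.22, SE 0.36), Dusp16 (2.21, SE 0.36) and Dusp1 (1.32, SE 0.40), and those lower were Dusp13 (-2.17, SE 0.47) and Dusp7 (-1.51, SE 0.48). None was called higher in DMSO, and 3 were called higher without SR-3420 + Dox replicate 1.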
